A study of Oryctolagus cuniculus with 24 samples.

Results

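Epithelium and lamina propria of the untreated rabbit caecum were compared by RNA sequencing of 2 cell fractions of the same 3 animals, the detached epithelial cells (IEC) and the mononuclear cells of the lamina propria (LPMC). These are the 6 libraries of the Veh Water group, 3 of IEC and 3 of LPMC, out of 24 libraries in the series. They were chosen by their labels, and a library of each cell type carrying the same number comes from the same rabbit. The sequenced animals were 4 groups of 3 New Zealand white rabbits, 8 to 10 weeks of age at the start, in a 2 by 2 layout of Trichuris suis ova (TSO, a pig whipworm) or vehicle and dextran sulphate sodium (DSS, which injures the epithelium and causes colitis) or no DSS. All animals drank fennel tea in place of water and were killed on day 35. Veh Water rabbits received the vehicle gavage and fennel tea alone, TSO Water rabbits received ova, Veh DSS rabbits received 0.1% DSS for 5 days from day 26, and TSO DSS rabbits received both. IEC were detached from the caecal wall with EDTA, and LPMC were released from the remaining wall, muscle layer included, with collagenase and collected on a density gradient. Neither fraction was sorted, so each is a mixture, and in bulk RNA fewer cells of a type cannot be told apart from less RNA per cell.

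The caecal epithelium is a single sheet of absorptive, mucus-secreting and hormone-producing cells that separates the gut contents from the body, takes up water, salts and short-chain fatty acids, and is renewed from stem cells in the crypts. The lamina propria is the loose connective tissue beneath it. It houses plasma cells, other B cells, T cells, macrophages and further leukocytes, along with fibroblasts and vessels. Both compartments share the housekeeping machinery of any cell, while secretory, transport and immune genes are known to be used mainly by one or the other. The deposited tables carry Ensembl identifiers without gene names, and the RefSeq gene table matched 0 of the 17318 identifiers, so the labelled cell types were not checked against their defining markers. Genes are therefore described by identifier, chromosome, abundance and behaviour in other rabbits, and no function is given for any of them.

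The IEC libraries of rabbits 1, 2 and 3 held 27479956, 21449147 and 13148569 reads on genes, and the LPMC libraries 14042904, 11229240 and 11157793. Levels are given as CPM, the reads of a gene per 1000000 reads of its library over all genes. Of 17318 genes, 4077 were at 0 in every LPMC library of the series and were set aside, which left 13241. The test was run on the 10013 of these with a mean of at least 1 CPM over the 6 libraries. A gene was called when its Benjamini-Hochberg adjusted p in a paired limma fit was under 0.05 and its log2 ratio of LPMC to IEC, on the scale of log2(CPM + 1), was above 1 or below -1.

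Expression differed widely between the cell types. In LPMC 1394 genes were higher than in IEC, which is 13.9% of the genes tested, and 709 were lower, which is 7.08%. Together the 2103 called genes made up 21.0% of the 10013. The levels of the 3 LPMC and the 3 IEC libraries did not overlap for 1347 of the 1394 higher genes and for 703 of the 709 lower genes. Over all genes tested, groups that did not overlap were common: 20.8% of genes lay wholly higher in LPMC and 33.7% wholly lower, together 54.5%. At an adjusted p under 0.05 without regard to size, 3530 genes, or 35.3%, differed, and at an unadjusted p 4788, or 47.8%.

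The genes called higher in LPMC had a median log2 ratio of 1.82, a 3.52-fold difference, with the middle 50% of genes between 1.39 and 2.42. Genes called lower in LPMC had a median log2 ratio of -1.43, or 2.69-fold, with the middle 50% between -1.93 and -1.14. The order of the 2 medians in size was not the same in every rabbit or list: rabbit 3 had 1.71 and -1.74, and genes called in the TSO Water rabbits had 1.64 and -1.72 in Veh Water. Across all genes tested the median log2 ratio was -0.16, so that an average gene had a slightly smaller share of the LPMC reads than of the IEC reads. Scaling the libraries by TMM moved that median to 0.02 and the split of calls from 1394 higher and 709 lower to 1557 and 493, which raised the share of higher genes among the calls from 66.3% to 76.0%. By edgeR's quasi-likelihood test on the recovered reads the split was 1641 and 471, or 77.7% higher.

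Most of the called genes differed by less than 4-fold. Between 2-fold and 4-fold lay 831 of the genes higher in LPMC, or 59.6%, and 548 of those lower, or 77.3%. A further 389 genes higher in LPMC and 109 lower ones lay between 4-fold and 8-fold, and 122 and 47 between 8-fold and 16-fold. At 16-fold or more there were 52 genes higher in LPMC and 5 lower. These numbers are not even between the directions, and what made them so was not tested. The directions were not treated alike: genes at 0 in every LPMC library had been set aside, genes at 0 in IEC had not. With the set-aside genes kept, 1392 genes were higher and 749 lower in LPMC, so the calls stayed uneven.

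**Figure D1:**
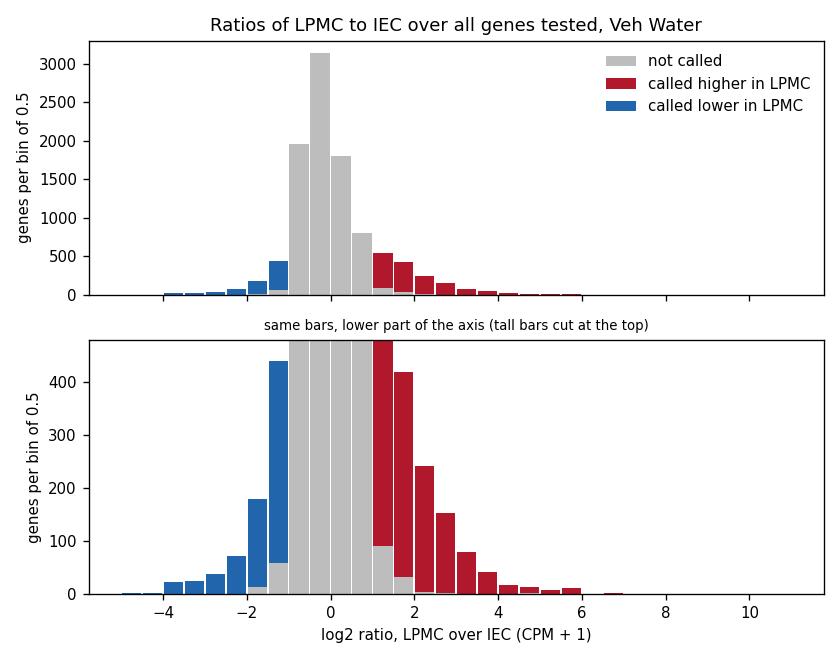
Number of genes (vertical axis) by log2 ratio of LPMC to IEC in Veh Water rabbits (horizontal axis, bins of 0.5, scale of log2(CPM + 1)) for the 10013 genes tested, with the called genes in red (1394 higher in LPMC) and blue (709 lower). The lower panel enlarges the bottom of the axis, where the red tail reaches 8.74 and the blue tail -4.58. The single gene beyond the red tail, between 10.5 and 11, did not pass the test. It is a mitochondrial gene listed at 0 in every IEC library.

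The share of genes called differed between classes of abundance. Among the 2837 genes with a mean of 1 to 10 CPM, 22% were higher in LPMC and 5.5% lower. Among the 5697 genes at 10 to 100 CPM the shares were 10.2% and 6.44%, and among the 1374 genes at 100 to 1000 CPM they were 12.7% and 12.2%. Of the 105 genes at 1000 CPM or more, mitochondrial genes included, 16 (15.2%) were higher and 18 (17.1%) lower in LPMC. The share of lower calls thus rose from class to class, while that of higher calls was largest in the rarest class and smallest in the class above it. The median log2 ratio fell along these classes, from 0.087 through -0.211 and -0.264 to -0.778.

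The called genes took up very different parts of the 2 transcriptomes. Genes higher in LPMC made up 32.3%, 19.3% and 21.5% of the LPMC reads of rabbits 1, 2 and 3, and 4.04%, 3.55% and 2.92% of the IEC reads of the same rabbits. The mean was 24.3% ± 6.98 in LPMC and 3.51% ± 0.561 in IEC (SD, n = 3). Genes lower in LPMC made up 12.2%, 15% and 15.8% of the IEC reads and 5.31%, 5.5% and 5.08% of the LPMC reads, which gave means of 14.3% ± 1.91 and 5.3% ± 0.21 (SD, n = 3). No test is given for these shares, because the genes were called on the same libraries. The 7881 genes outside the mitochondrial genome that were tested and not called held 61% ± 1.85 of the IEC reads and 49.6% ± 1.72 of the LPMC reads.

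**Figure D2:**
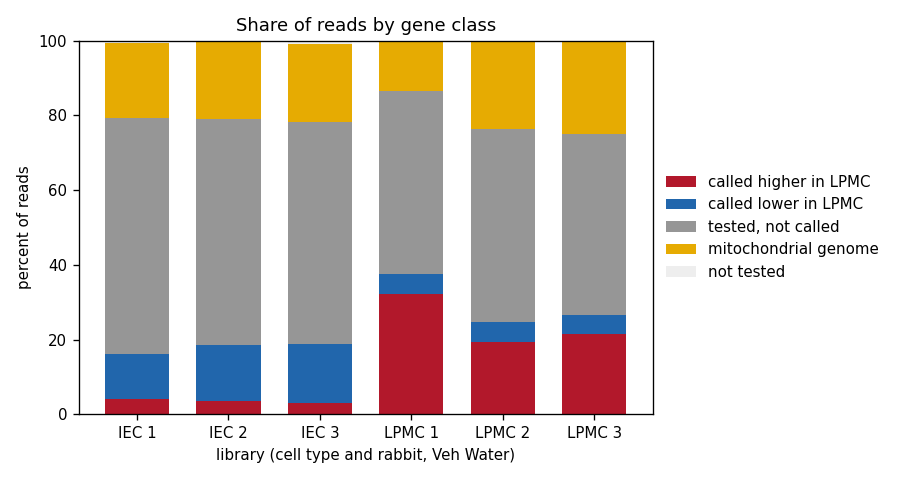
Percent of the reads (vertical axis) of each Veh Water library (horizontal axis, by cell type and rabbit) that fell on genes called higher in LPMC, called lower in LPMC, tested but not called, on the mitochondrial genome, or not tested. The red portion is 19.3% or more in each LPMC library and 4.04% or less in each IEC library.

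The largest contribution to the LPMC share was that of a single gene. ENSOCUG00000027219, on the + strand of chromosome 15, had 109021, 53230 and 95030 CPM in the LPMC of rabbits 1, 2 and 3, and 1640, 1171 and 2255 CPM in their IEC. The lowest LPMC library was far above the highest IEC library. This gene was the most abundant transcript outside the mitochondrial genome in LPMC, where it took 10.9%, 5.32% and 9.5% of all reads, and it ranked 56 in IEC. Its mean was 85761 ± 29028 CPM in LPMC and 1689 ± 544 CPM in IEC (SD, n = 3). The log2 ratio was 5.65 (SE 0.25), or 50.3-fold, with an adjusted p of 0.0019 in limma, and it was 6.05, 5.51 and 5.40 in the 3 rabbits.

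Among the called genes, the largest ratio was that of ENSOCUG00000001597, on the - strand of chromosome 2. Its levels were 2432, 963 and 808 CPM in LPMC and 3.49, 1.17 and 1.52 CPM in IEC. Behind these stood 34154, 10814 and 9017 reads in LPMC and 96, 25 and 20 reads in IEC. Outside the mitochondrial genome it ranked 50 in LPMC and 9001 in IEC. The log2 ratio was 8.74 (SE 0.19), or 426-fold, with an adjusted p of 0.0014 in limma. With 1 CPM added to such low IEC levels this fold is an understatement, and the log2 ratio was 9.62 by edgeR and 9.57 by DESeq2 on the recovered reads. The 3 rabbits gave 9.08, 8.80 and 8.33.

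In the opposite direction, the largest ratio belonged to ENSOCUG00000028992, on the - strand of chromosome 17. It stood at 759, 674 and 925 CPM in IEC and at 10.2, 53.1 and 56.9 CPM in LPMC. The groups did not overlap, and the LPMC library of rabbit 1 was the lowest by a wide margin. The log2 ratio was -4.58 (SE 0.51), which is 23.9-fold lower in LPMC, with an adjusted p of 0.0061 in limma. By rabbit it was -6.09, -3.64 and -4.0. The gene ranked 129 outside the mitochondrial genome in IEC and 3410 in LPMC.

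The called gene with the largest loss in mean CPM was ENSOCUG00000026592, on the + strand of chromosome 9, the sixth most abundant transcript of IEC outside the mitochondrial genome. It had 3939, 4543 and 6114 CPM in IEC and 1682, 1998 and 1917 CPM in LPMC, where it still ranked 29. All 3 IEC libraries exceeded all 3 LPMC libraries, and the LPMC values were the tighter ones, with means of 4866 ± 1122 CPM and 1865 ± 164 CPM (SD, n = 3). The log2 ratio was -1.36 (SE 0.20), or 2.57-fold lower, with an adjusted p of 0.01 in limma. Its ratios in the 3 rabbits were -1.23, -1.19 and -1.67. The call was lost without rabbit 2 (log2 ratio -1.45, adjusted p 0.07327 in limma) and without rabbit 3 (-1.21, 0.08296).

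**Figure D3:**
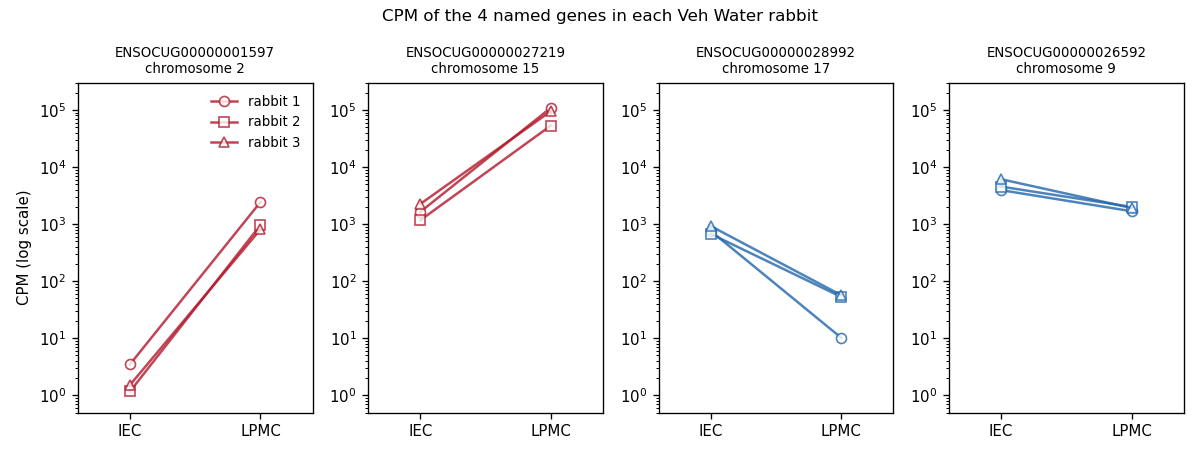
CPM on a log scale (vertical axis) of the 4 named genes in IEC and LPMC of each Veh Water rabbit, with lines joining the libraries of 1 rabbit. The 3 lines of each panel run in the same direction and no IEC point overlaps the LPMC points. The first panel shows the widest step, from 3.49 CPM or less in IEC to 808 CPM or more in LPMC, and the last the narrowest.

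The contrast between IEC and LPMC was larger than that between animals. Across the 10013 genes, log2 levels of any pair of IEC libraries correlated at 0.958 to 0.978 and those of any pair of LPMC libraries at 0.940 to 0.967. An IEC library and an LPMC library correlated at 0.790 to 0.888, and at 0.820 to 0.856 when both came from 1 rabbit. These are correlations across genes, which are not independent replicates, and all libraries share the gene content that sets the general level. The log2 ratios of LPMC to IEC of any pair of rabbits correlated at 0.689 to 0.861. In 6658 of the 10013 genes the ratio had the same sign in all 3 rabbits.

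The rabbits differed in the size of the contrast, and not in the same way for both sets of genes. Genes higher in LPMC had median log2 ratios of 2.00, 1.78 and 1.71 in rabbits 1, 2 and 3, and genes lower in LPMC had medians of -1.14, -1.52 and -1.74. Rabbit 1 thus had the widest contrast on the LPMC side and the narrowest on the IEC side. The study's animal records list it under another room than rabbits 2 and 3, and room and animal cannot be told apart. A ratio past 1 in each of the 3 rabbits was held by 1012 of the 1394 higher genes and 364 of the 709 lower genes. The number of calls depended strongly on which rabbits were in the fit. Without rabbit 1 there were 1657 genes higher and 1005 lower in LPMC, without rabbit 2 there were 487 and 155, and without rabbit 3 there were 840 and 252.

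The genes with the largest IEC excess behaved differently from the rest of the lower genes. Of the 709, 52 had a log2 ratio of -3 or below, and their medians were -3.93, -3.1 and -3.54 in rabbits 1, 2 and 3, so that rabbit 1 had the widest contrast here. In 40 of the 52 the lowest ratio was that of rabbit 1. Because these genes were picked on the same ratios, the same was read from a list made in other animals. In the TSO Water rabbits 50 genes tested here were called with a ratio of -3 or below. Of these, 49 were also called lower in Veh Water, beside 7.08% of all genes tested. Their median ratios were -3.98, -3.12 and -3.54 in Veh Water rabbits 1, 2 and 3, with rabbit 1 lowest in 38 of the 50. At the median these genes stood in LPMC, in CPM, at 5.09%, 9.85% and 7.63% of their IEC level. On the other side, 279 genes had a ratio of 3 or above in TSO Water. In Veh Water 270 of them were called higher, beside 13.9% of all genes tested. Their CPM in IEC was 6.45%, 8.45% and 7.74% of that in LPMC at the median.

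Spread among replicates was wider in LPMC for the genes of LPMC. Over all genes tested the median SD of log2 levels was 0.22 in IEC and 0.25 in LPMC, and that of the paired log2 ratio 0.33. For genes higher in LPMC the corresponding values were 0.34, 0.47 and 0.42. For genes lower in LPMC they were 0.34, 0.24 and 0.39, and the more variable libraries were then those of IEC. In each direction the SD was thus larger in the cell type with the higher level. The 1 CPM added on this scale narrows the spread of low levels, and the genes were called on the same libraries.

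Some transcripts were counted almost only in 1 cell type. Leaving out genes listed at 0 in single libraries of a cell type, 51 of the genes tested had 3 reads or fewer in every IEC library, a level of 0.109, 0.14 and 0.228 CPM in rabbits 1, 2 and 3. Of these, 40 reached 1 CPM in all 3 LPMC libraries, and 15 had no read in IEC. Conversely, 11 of the genes tested had 3 reads or fewer in every LPMC library (0.214, 0.267 and 0.269 CPM), 4 of which reached 1 CPM in all 3 IEC libraries and 7 of which had no read in LPMC. Genes of either kind passed the filter through the other cell type alone and so had to differ, and no fold or count of calls is given for them. None of these genes was abundant: the highest mean was 20.4 CPM in LPMC for the first set and 3.25 CPM in IEC for the second.

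The genes set aside for being at 0 in every LPMC library held a second, larger set of this kind. Of the 4077, 204 were above 0 in Veh Water IEC and 53 had a mean of at least 1 CPM over the 6 libraries, of which 39 reached 1 CPM in all 3 IEC libraries. Chromosome 2 carried 40 of the 53, and these 40 summed to 5320, 3281 and 6847 CPM in the IEC of rabbits 1, 2 and 3 and to 0 reads in LPMC. The most abundant had a mean of 1920 CPM in IEC. No fold is given for these genes, because a value of exactly 0 in all 12 LPMC libraries of such abundant transcripts can be a failed estimate, and they are said only to be listed at 0.

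Called genes lay on every chromosome, in uneven shares. Calls higher in LPMC were most frequent on chromosome 10, with 37 of 195 genes tested (19%), chromosome 15, with 61 of 335 (18.2%), and chromosome 12, with 124 of 686 (18.1%), beside 13.9% of all genes. They were least frequent on chromosome 6, with 12 of 171 (7.02%), chromosome 20, with 12 of 155 (7.74%), and chromosome 5, with 21 of 271 (7.75%). Calls lower in LPMC were most frequent on chromosome 17, with 64 of 503 (12.7%), and chromosome 8, with 38 of 354 (10.7%), beside 7.08% of all genes, and least frequent on chromosome 15, with 13 of 335 (3.88%). Chromosome 17 carried more genes lower than higher in LPMC, 64 against 59, as did chromosome 20, with 15 against 12. The ranks depended on the fit. Without rabbit 2, chromosome 10 had 8 genes higher and 13 lower, and edgeR and DESeq2 called relatively more genes higher on chromosome 15 (71 and 79 of 335) than on chromosome 10 (38 and 43 of 195). The order of lower and higher calls on chromosomes 17 and 20 turned under TMM scaling, with 44 lower against 67 higher on chromosome 17 and 12 against 14 on chromosome 20. No test was made of these shares. Chromosome 15 took 1.87% of the IEC reads and 10.1% of the LPMC reads on average, and 1.7% and 1.56% once ENSOCUG00000027219 was left out.

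**Figure D4:**
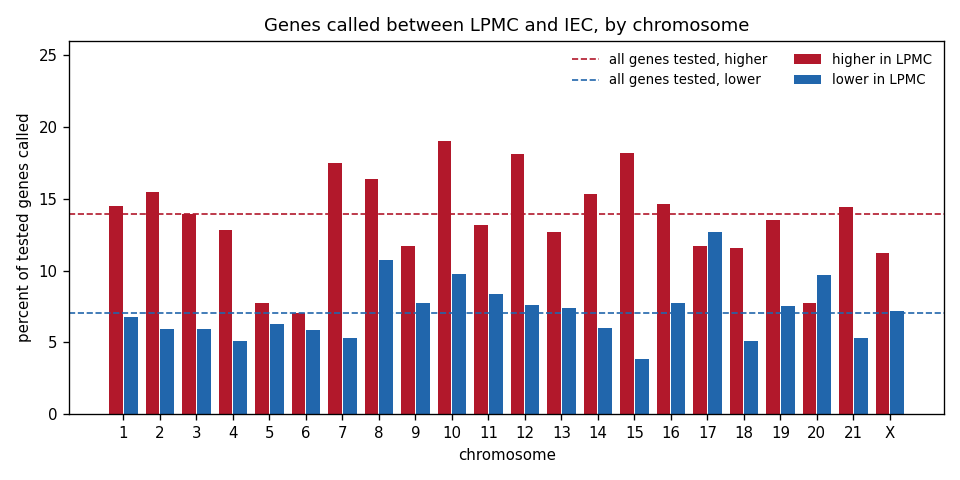
Percent of the genes tested (vertical axis) on each chromosome (horizontal axis) that were called higher (red) or lower (blue) in LPMC, with the shares over all genes tested, 13.9% and 7.08%, as dashed lines. Red bars are tallest on chromosomes 10, 15 and 12, and chromosomes 17 and 20 are those whose blue bar exceeds the red one, an order that turned under TMM scaling.

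None of the 29 genes tested on the mitochondrial genome was called by limma, beside 21.0% of all genes tested. In limma 3 of the 29 had an unadjusted p under 0.05, beside 47.8% of all genes. Of the 29, edgeR called 7 and DESeq2 3. Over all 10013 genes edgeR called 1641 higher and 471 lower, and DESeq2 1752 and 596. The mitochondrial genome took 20.1%, 20.5% and 21% of the IEC reads and 13.5%, 23.5% and 25% of the LPMC reads. The mean difference of LPMC from IEC was 0.133 percentage points (SD 5.87, n = 3), higher in 2 of 3 rabbits, with p = 1 in a two-sided exact test of sign flips. With 3 rabbits the smallest p that this test can reach is 0.25. Of the 37 mitochondrial genes, 14 were above 0 in all 6 libraries, and 4 were listed at 0 in 1 library or more while standing at 1000 CPM or more in another. One of them was listed at 0 in all 3 IEC libraries and in the LPMC of rabbit 2, and at 42983 and 83674 CPM in the LPMC of rabbits 1 and 3. Over the 14 genes above 0 throughout, the mitochondrial share was 20.1%, 10.5% and 11% in IEC and 4.92%, 12.4% and 8.99% in LPMC.

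LPMC libraries held more genes at a measurable level than IEC libraries, although they were less deeply sequenced. At 1 CPM or more there were 9650, 9662 and 9440 genes in IEC and 10006, 10052 and 9884 in LPMC, a mean difference of 397 genes (SD 44.4), higher in 3 of 3 rabbits (two-sided exact test of sign flips, p = 0.25, the smallest possible). Across all 12 rabbits of the series the difference was 300 genes (SD 258), higher in 10 of 12 (exact p = 0.00439, adjusted p = 0.00879 over the 4 library measures tested). Genes with at least 1 read numbered 11932, 11887 and 11484 in IEC and 11857, 11804 and 11683 in LPMC.

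The top transcripts held a larger share of the LPMC libraries, through ENSOCUG00000027219. The 10 most abundant genes outside the mitochondrial genome took 8.22%, 8.17% and 8.16% of the reads in IEC and 17.3%, 10.8% and 14.7% in LPMC. The difference was 6.1 percentage points (SD 3.27), higher in 3 of 3 rabbits (exact p = 0.25). Over 12 rabbits it was also 6.1 points (SD 3.82), higher in 12 of 12 (exact p = 0.000488, the smallest possible, adjusted p = 0.00195). Leaving out ENSOCUG00000027219 before the 10 genes were taken, a choice made after its values were seen, turned the direction. The 10 genes then held 6.78%, 5.84% and 5.55% of the LPMC reads, under the IEC values of the same rabbits, with a difference of -2.13 points (SD 0.612, higher in LPMC in 0 of 3, exact p = 0.25). Over 12 rabbits that difference was -0.545 points (SD 2.29, higher in 4 of 12, exact p = 0.418). With the mitochondrial genes and ENSOCUG00000027219 counted in, the top 10 share differed by 6 points in the Veh Water rabbits and by -1.19 points over 12 rabbits (exact p = 0.694, adjusted p = 0.694). The mitochondrial share itself was lower in LPMC by a mean of 7.7 points over 12 rabbits, with a difference of -7.7 (SD 14.1) and a higher share in LPMC in 5 of 12 (exact p = 0.0864, adjusted p = 0.115).

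The contrast was then followed in the 9 rabbits of the other groups, which share no library with the Veh Water rabbits. In TSO Water the 1373 genes called higher in Veh Water that could be tested all had a mean ratio in the same direction, with a median log2 ratio of 2.07, and 1300 of them were also called there, where 17.7% of all 10007 genes tested were called higher in LPMC and 4.49% lower. Of 700 genes called lower, 692 had the same direction, with a median of -1.02, and 354 were called. Among all genes tested in TSO Water, 52.7% had a ratio above 0 and 47.3% below. By rabbit, the median of the lower genes was -1.65, -0.671 and -0.831 in TSO Water rabbits 1, 2 and 3. The median of all genes moved with it, at -0.0992, 0.294 and 0.0519, as did the mitochondrial share of the IEC reads, at 17.4%, 41.7% and 32%, and the part of either in the medians was not tested. With CPM taken over genes outside the mitochondrial genome, 693 of the 700 lower and 1371 of the 1373 higher genes had the same direction.

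In the DSS groups the ratios of the same genes were closer to 0. Veh DSS rabbits showed the same direction in 1269 of 1316 higher genes, with a median log2 ratio of 1.15, and in 683 of 694 lower genes, with a median of -0.863, where 48.5% and 51.5% of all genes tested had a ratio above and below 0. In TSO DSS rabbits 920 of 1208 higher genes kept the direction, with a median of 0.502, and 641 of 690 lower genes, with a median of -0.632, where the shares of all genes were 52.8% and 47.2%. Calls were fewer over all genes in these fits: 422 genes (4.22%) were higher and 190 (1.90%) lower in LPMC in Veh DSS, and 9 (0.0919%) and 30 (0.306%) in TSO DSS. Of them 406 and 179 in Veh DSS, and 9 and 27 in TSO DSS, had been called in the same direction in Veh Water. These groups were compared with Veh Water by their values alone, and the differences of the medians were not tested. The genes were selected on the Veh Water ratios, so their Veh Water medians are no even reference for those of the other groups.

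Single rabbits of a group stood apart. The genes called higher in LPMC had a median log2 ratio of 0.667 in rabbit 2 of Veh DSS, beside 1.62 and 1.26 in rabbits 1 and 3, and of 0.544, 0.186 and 1.17 in rabbits 1, 2 and 3 of TSO DSS. For the genes called lower, the median was -0.174 in rabbit 3 of TSO DSS, with 59.1% of genes in the same direction, beside -0.689 and -1.11 in rabbits 1 and 2. In that rabbit the median of all genes was 0.314, the IEC library had 46.5% and the LPMC library 9.06% of reads on the mitochondrial genome, the highest and the lowest share of the series, and the LPMC library was the smallest, with 3685513 reads. Their part in the result was not tested. With CPM taken over genes outside the mitochondrial genome, the count with the same direction in TSO DSS was 674 of 690 lower genes, up from 641, and 767 of 1208 higher genes, down from 920. In all 9 other rabbits, 448 of the 1394 higher genes (32.1%) and 353 of the 709 lower genes (49.8%) had the direction seen in Veh Water, where 8.66% and 5.7% of all genes tested had such a ratio in all 9.

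**Figure D5:**
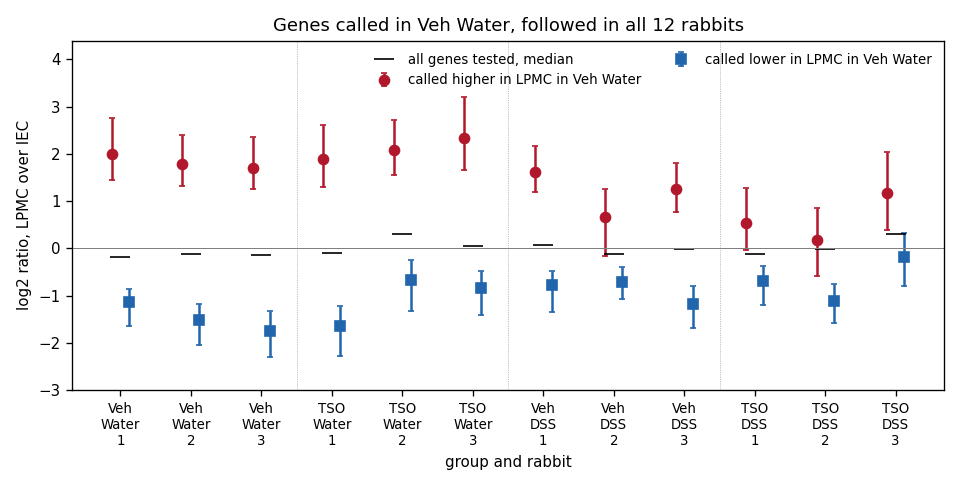
Log2 ratio of LPMC to IEC (vertical axis) in each of the 12 rabbits (horizontal axis, by group) for the genes called higher (red circles) and lower (blue squares) in LPMC in Veh Water, as the median with bars from the lower to the upper quartile, and the median of all genes tested as a black dash. Red medians run from 1.71 to 2.00 in Veh Water and from 0.186 to 1.17 in TSO DSS, and the blue median nearest to 0 is the -0.174 of TSO DSS rabbit 3.

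Read the other way, a list drawn up in the TSO Water rabbits gave a measure of the Veh Water contrast that its own calls did not enter. Of 1769 genes called higher in LPMC in TSO Water, 1700 were tested in Veh Water, 1680 had the same direction and 1300 were called, where 41.4% of all genes tested had a ratio above 0 and 13.9% were called higher. Their median log2 ratio was 1.64, and 1.83, 1.54 and 1.5 in rabbits 1, 2 and 3. On that scale of CPM + 1, the medians correspond to 28.1%, 34.4% and 35.5% of the LPMC level in IEC. Of 449 genes called lower, 443 were tested, 438 had the same direction and 354 were called, where 58.6% of all genes had a ratio below 0 and 7.08% were called lower. Their median was -1.72, with -1.57, -1.82 and -1.96 in the 3 rabbits, which correspond to 33.6%, 28.4% and 25.8% of the IEC level in LPMC.

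In CPM the mean ratio of each of the 4 named genes had the same sign in every group of rabbits. ENSOCUG00000027219 had log2 ratios of 5.81 in TSO Water, 4.69 in Veh DSS and 5.17 in TSO DSS, beside 5.65 in Veh Water, the value of TSO DSS with an adjusted p of 0.11 in limma, and stood at 31010 CPM or more in every LPMC library of the series. Its IEC level was the less steady, from 392 CPM in rabbit 3 of TSO Water to 8967 CPM in rabbit 2 of Veh DSS. ENSOCUG00000028992 had log2 ratios of -4.21, -4.20 and -2.93 in TSO Water, Veh DSS and TSO DSS, the last with an adjusted p of 0.11 in limma. ENSOCUG00000026592 had ratios of -1.16, -0.96 and -0.21 (SE 0.44, 0.36 and 0.58), none of which passed the test (adjusted p 0.057, 0.17 and 0.93 in limma). In rabbit 3 of TSO DSS it ran the other way, with 3740 CPM in LPMC and 2093 CPM in IEC.

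ENSOCUG00000001597 was the exception in size. Its log2 ratio of 8.74 in Veh Water stood beside 8.32 in TSO Water, 5.90 in Veh DSS and 2.41 in TSO DSS, the last with an adjusted p of 0.078 in limma. In TSO DSS its levels were 254, 221 and 24.7 CPM in LPMC and 44.1, 69.3 and 2.05 CPM in IEC, so that all 3 LPMC values lay under the lowest Veh Water LPMC value and 2 of the 3 IEC values above the highest Veh Water IEC value. The gene was named for having the largest Veh Water ratio among the called genes, a choice that favours smaller ratios elsewhere. The TSO DSS ratio differed from that of Veh Water by -6.32 (SE 0.41, adjusted p 0.0164 in limma, test of the interaction). This was 1 of 12 such differences computed for the named genes, and the adjusted p of the other 11 lay between 0.2744 and 0.9545. It was lost without any 1 of the Veh Water rabbits (adjusted p 0.06759, 0.1109 and 0.08949 in limma without rabbits 1, 2 and 3), without rabbit 1 of TSO DSS (0.1262) and with no replicate block (0.07011). Over the alternatives tried, the difference ranged from -6.74 to -5.95, with adjusted p from 0.0037 to 0.13 in limma.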

How the data were processed

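RNA of caecal IEC and LPMC was sequenced from poly(A) libraries without strand information. The deposited tables hold a normalised signal per Ensembl gene of OryCun 2.0; the authors' aligner and counter are not given in the sources used here. The signal of each deposited library equals whole reads times 1 factor: 100% of values under 400 reads lay within 0.1 of a whole number, and the Veh Water reads recovered from different tables were identical for every gene under 400 reads. The factor cancels in CPM, so IEC and LPMC, which stand in separate tables, could be compared. The authors' own fold changes, p-values and false discovery rates in these tables were not used. Columns of no sample of the series numbered 0.

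Without strand, overlapping and antisense genes share reads, and near-identical gene copies may split theirs. The reads come from 3 rabbits per group, so p-values measure the spread between animals.

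Limma 3.58.1 (R 4.3.3; trend, empirical Bayes) was fitted to log2(CPM + 1) with rabbit as a block, on genes with a mean of at least 1 CPM. Calls needed an adjusted p under 0.05 and an absolute log2 ratio above 1, the thresholds of the study, which gives no test between cell types. A fold on this scale understates the change of low genes. On simulated data for this comparison, with 200 of 10013 genes changed 4-fold, 190 were recovered (95%) with 2 false calls. The simulation gave all genes the same spread and raised as many genes as it lowered. In the real comparison 21.0% of genes were called, more of them higher, so these rates need not hold there. Other fits used edgeR 4.0.16 and DESeq2 1.42.0 on the recovered reads. Library measures were compared by exact sign flips with scipy 1.17.1.

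Pairing comes from the labels, which name the same animal for both libraries of a number. Deviations of same-numbered libraries from their group means correlated at -0.10, 0.07 and 0.13 across genes. Those of libraries of different rabbits lay between -0.23 and 0.13, a range that holds the same-numbered values. Genes were named by rule, in each direction the called gene with the largest absolute log2 ratio and the one with the largest difference of mean CPM. The comparison, its members and the lists were chosen with earlier results of these data known. Marker and pathway lists could not be used without gene names, no sequences are shown, and classes of GC content and length were not formed, since the tables used here hold neither. The floors of 3 reads cover counting error only.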

Additional observations from a re-analysis of the deposited data

Results flagged for a closer look

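The ratio of LPMC to IEC of ENSOCUG00000001597 differed between groups under the same contrast. The log2 ratio of TSO DSS rabbits minus that of Veh Water rabbits was -6.32 (SE 0.41, adjusted p 0.0164 in limma, interaction term with rabbit as a block). The call was lost with no replicate block (adjusted p 0.07011 in limma), without any 1 of the Veh Water rabbits (0.06759, 0.1109 and 0.08949) and without rabbit 1 of TSO DSS (0.1262). The difference in Veh DSS was -2.84 (SE 0.68, adjusted p 0.5078 in limma). The gene had been named for its large Veh Water ratio, which favours smaller ratios in other groups.

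Reads fell in IEC on the genes that were set aside because they were at 0 in every LPMC library. They made up 0.54%, 0.34% and 0.699% of the IEC reads of Veh Water rabbits 1, 2 and 3, genes that were left out of the main test; with them kept, 10066 genes were tested and 749 were lower in LPMC.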

How the results depend on the processing

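Direction and side of the threshold were kept by the named genes' Veh Water ratios in 66 of 68 alternatives. The 2 exceptions were ENSOCUG00000026592 without rabbit 2 or 3. Counts of the same direction in other groups lay within 1.5 times the main count in all 42 alternatives. In TSO DSS the higher count still ran from 766 to 1021 beside 920, and the lower from 549 to 674 beside 641. Calls numbered 1365 higher and 722 lower with no replicate block, beside 1394 and 709 with the pairing by rabbit. Leaving out 1 rabbit gave 487 to 1657 genes higher and 155 to 1005 lower in LPMC. Without rabbit 1, 1290 of the 1657 and 686 of the 1005 were also called with all rabbits. Without rabbit 2 these were 485 of 487 and 153 of 155, and without rabbit 3, 832 of 840 and 248 of 252. Each of these fits had fewer samples, and the number of calls rose without rabbit 1 and fell without rabbit 2 or 3. By edgeR's quasi-likelihood test 471 genes were lower, and 457 of them were also called by limma; the cause was not tested. The other alternatives gave 1010 to 1752 genes higher and 493 to 788 lower; 1489 and 592 were called when 37 genes listed at 0 in single libraries were left out, a choice made after seeing the data. The median of all genes moved from -0.16 to 0.02 under TMM. Thinning every library to 11157793 reads gave 1393 and 700. The share of the 10 most abundant genes outside the mitochondrial genome was higher in LPMC by 4.6 to 7.84 points with 1 rabbit left out, and turned to -2.13 points, and to -0.545 over 12 rabbits, without ENSOCUG00000027219. The mitochondrial difference was -1.79 to 3.51 points with 1 rabbit left out, and -5.09 over the 14 genes above 0 in all 6 libraries, chosen after seeing the data.

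Of 272 counts by chromosome under alternatives, 226 lay within 1.5 times the main count. For ENSOCUG00000001597 in TSO DSS, the call of the difference from Veh Water was also lost with no replicate block (-6.32, adjusted p 0.07011 in limma). Differences of the named genes from Veh Water that missed the threshold changed sign in 12 alternatives, all with an adjusted p of 0.6483 or more in limma. Of these, 4 came from scaling in TSO Water: over genes outside the mitochondrial genome ENSOCUG00000027219 was at -0.14 and ENSOCUG00000026592 at -0.09, and under TMM they were at -0.10 and -0.06. The others came from leaving out 1 rabbit. The range was then -1.35 to 0.08 for ENSOCUG00000001597, -0.76 to 0.72 for ENSOCUG00000027219, -0.39 to 0.84 for ENSOCUG00000028992 and -0.11 to 0.45 for ENSOCUG00000026592 in TSO Water. In Veh DSS it was -1.69 to 0.07 for ENSOCUG00000027219 and -0.38 to 0.85 for ENSOCUG00000028992, and in TSO DSS -1.11 to 0.11 for ENSOCUG00000027219.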
